A study of Raphanus sativus with 9 samples.

Results

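The *MYB28* and *MYB29* homologs of radish (*Raphanus sativus* cv. Taebaek) are 5 of the 64657 genes in the count tables. They were chosen by their gene identifiers: *RsMYB28a* (RSG16088), *RsMYB28b* (RSG23384), *RsMYB28c* (RSG53581), *RsMYB29a* (RSG00789), and *RsMYB29b* (RSG09585). RNA from leaf and root of plants of this cultivar was sequenced at 3 time points: 4-week-old non-vernalized plants (NV, called before vernalization in the study), 8-week-old plants after 4 weeks of cold (V), and 10-week-old plants after the same cold and 2 further weeks in the warm (AV). There were 3 libraries per time point, with 21119531 to 27606212 reads counted on genes in each. Age therefore rose with the treatment. By the study's methods, the cold was given in a cold room with a short photoperiod under sodium light. NV plants grew in a greenhouse, to which AV plants had returned. Age, light, and growth temperature thus cannot be told apart from vernalization. Within a library, RNA of the leaf cannot be told apart from that of the root, nor fewer cells of a type from less RNA per cell, and tissue markers were not checked because the identifiers carry no annotation here. The counts of AV-2 and AV-3 were equal in 98.7% of 27930 well-covered genes and for all 5 homologs, whereas counting noise alone would leave 2.00% equal and other pairs of libraries were equal in 0.359 to 0.899%. The study's supplement, however, lists AV-2 and AV-3 as separate libraries with unlike read totals and mapping rates. A separate AV replicate may thus be missing from the counts, and why the counts match is not given. The pair differed by less than the sampling noise and was counted as 1 sample, its average. This left 3 NV, 3 V, and 2 AV libraries.

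MYB28 and MYB29 are R2R3-MYB transcription factors. In *Arabidopsis*, they switch on the genes that build aliphatic glucosinolates from methionine, first by elongating the side chain, then by forming the core structure, and then by modifying the side chain. Their roles overlap there, and plants that lack both make almost no aliphatic glucosinolates. MYB34, MYB51, and MYB122 play the matching part for the indolic glucosinolates, which are made from tryptophan. The question asked here was how much each radish homolog contributed to the reads of the family and how that changed during and after vernalization.

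The family as a whole was highest in V and lowest in AV. The summed level of the 5 homologs was 361, 354, and 243 CPM (reads scaled to a fixed library size after TMM normalization) in NV, 385, 463, and 376 CPM in V, and 68.2 and 82.2 CPM in AV. The AV libraries lay below all others, and each V library lay above each NV library. The mean sum was 408 ± 47.7 CPM in V (SD, n = 3) and 320 ± 66.2 CPM in NV (SD, n = 3), so that V stood at 128% of NV. In AV it was 75.2 ± 9.87 CPM (SD, n = 2), which was 23.5% of the NV mean and 18.4% of the V mean. These sums are a description, without a test.

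The MYB29 homologs were the ones that lost most. *RsMYB29a* had 199, 204, and 116 CPM in NV, 152, 192, and 157 CPM in V, and 16.6 and 18.7 CPM in AV. NV and V overlapped, NV-3 was the lowest NV library, and both AV libraries lay far below the rest. Its log2 fold change was -0.050 ± 0.20 (SE) in V against NV, with a 95% interval from -0.47 to 0.37 and an adjusted p of 0.868 by the quasi-likelihood test of edgeR after Benjamini-Hochberg adjustment. Without NV-3 it was -0.27, with an adjusted p of 0.188, whereas it was above 0 without NV-1, without NV-2, or without V-1, so that the sign depends on single libraries. In AV against NV the level fell by 3.29 ± 0.26 on the log2 scale, a 9.80-fold decrease.

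*RsMYB29b* had 23.2, 19.9, and 18.3 CPM in NV, 39.1, 44.4, and 37.4 CPM in V, and 2.07 and 3.72 CPM in AV. The 3 time points did not overlap. Unlike *RsMYB29a*, it rose by 0.98 ± 0.19 on the log2 scale in V against NV (adjusted p = 0.000851, edgeR). The level then fell by 3.80 ± 0.26 on the log2 scale in AV against V, a 13.9-fold decrease, the largest of the 5. The AV values rest on 55 and 101 counts.

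The 3 MYB28 homologs did not share 1 pattern. *RsMYB28a* had 69.9, 72.8, and 60.0 CPM in NV, 99.0, 107, and 92.8 CPM in V, and 32.0 and 33.8 CPM in AV, with no overlap between time points. It rose by 0.56 ± 0.15 on the log2 scale in V against NV and fell by 1.04 ± 0.17 in AV against NV, the smallest fall among the 4 homologs that fell. *RsMYB28c* had 65.6, 54.6, and 48.0 CPM in NV, 89.6, 112, and 85.2 CPM in V, and 12.1 and 17.2 CPM in AV. Its time points did not overlap either, and the log2 fold changes were 0.77 ± 0.18 in V against NV and -1.93 ± 0.22 in AV against NV.

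*RsMYB28b* was the exception. It had 3.23, 3.41, and 1.19 CPM in NV, 4.83, 6.69, and 3.93 CPM in V, and 5.47 and 8.87 CPM in AV. NV lay below both other time points, while V and AV overlapped. It was higher in AV than in NV by 1.46 ± 0.37 on the log2 scale (adjusted p = 0.00580, edgeR), but this call was lost without the averaged AV library (1.06, adjusted p = 0.114). In V against NV it was higher by 0.98 ± 0.34 (adjusted p = 0.0341), and this call was lost without NV-3 (0.63, adjusted p = 0.0954), without V-1 (1.03, adjusted p = 0.0556), or without V-2 (0.76, adjusted p = 0.132). In AV against V the log2 difference was 0.48 ± 0.36, with an interval from -0.28 to 1.25 and an adjusted p of 0.337. *RsMYB28b* had 29 to 241 counts per library, the fewest of the 5 in NV and V.

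**Figure D1:**
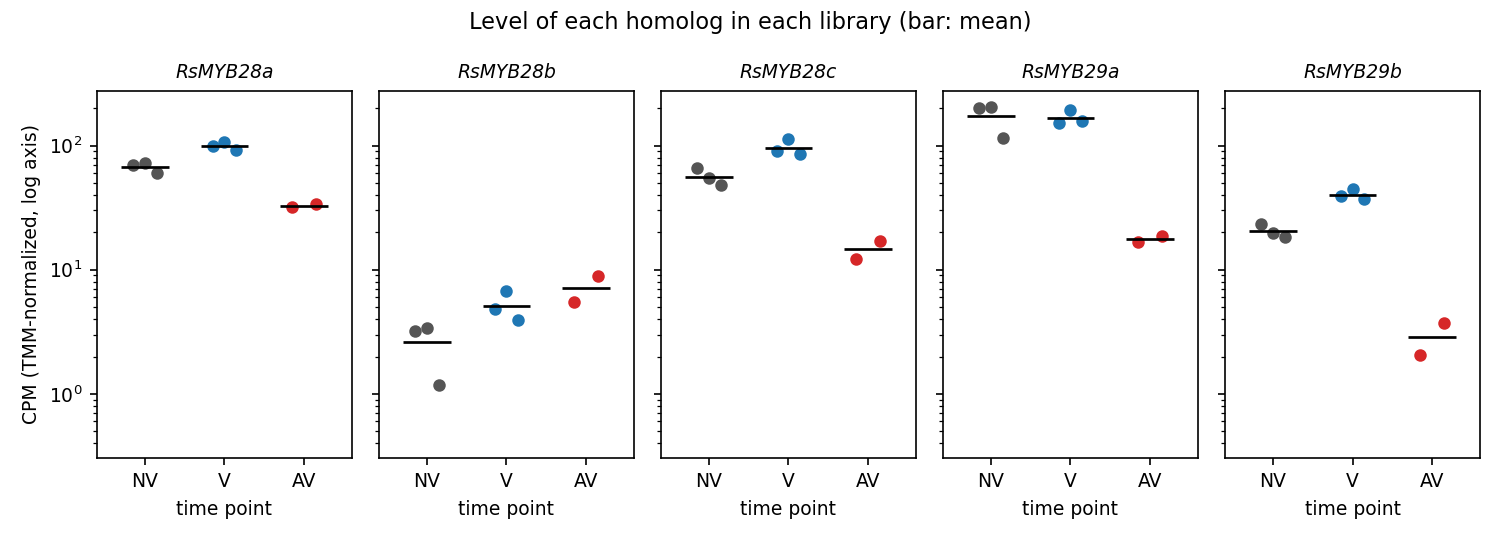
Level of each homolog (CPM, TMM-normalized, log axis) in each library at NV, V, and AV; points are libraries and bars are means, with AV-2 and AV-3 averaged. RsMYB28a, RsMYB28c, RsMYB29a, and RsMYB29b are lowest in AV, while both AV points of RsMYB28b, 5.47 and 8.87 CPM, lie above its NV points. CPM is not per transcript length, so heights are to be compared within a panel.

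Of the 5 homologs, 4 were higher in V than in NV at an adjusted p under 0.05 at any fold, and 0 were lower. Among all 32043 genes tested, 38.5% were called in this comparison, 19.2% higher and 19.3% lower. The same 4 homologs had V libraries all above their NV libraries, as in 25.1% of all genes, and no homolog had them all below, as in 23.9%. In AV against NV all 5 were called, against 36.8% of all genes: 4 were lower, against 19.8%, and *RsMYB28b* was higher, against 17.0%. Libraries did not overlap for any of them, which was so for 28.4% of all genes upward and 29.0% downward. In AV against V, 4 were called, against 31.6% of all genes, all lower, against 16.9%, and 0 were higher, against 14.7%. These 4 did not overlap between AV and V, as 30.2% of all genes downward and 29.0% upward. The counts of 0 by edgeR were also 0 at an unadjusted p under 0.05 and with DESeq2. The median log2 fold change of the 5 was 0.77 in V against NV, -1.93 in AV against NV, and -2.70 in AV against V, whereas the median of all genes lay between -0.016 and 0.012. The 3 comparisons share libraries, so they are not independent of each other. *RsMYB28a*, *RsMYB28c*, and *RsMYB29b* were both higher in V than in NV and lower in AV than in V, a course that 8.17% of all genes took.

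The composition of the family was described by the share of each homolog in the summed reads of the 5. A share does not depend on how libraries are normalized, but it is a share of reads and not per transcript length, since no lengths were at hand. The shares sum to 100%, so that a rise of 1 homolog lowers the others. Each was tested across the 3 time points by an exact permutation test over the 280 distinct groupings of the 8 libraries, which cannot give a p below 0.00357. The 10 shares computed (5 within the family, the MYB29 sum, and 4 within the MYB28 or the MYB29 homologs) were adjusted together. No exact test between a pair of time points can go below 0.1 at this number of libraries.

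*RsMYB29a* held the most reads in every NV and V library, and *RsMYB28a* held the most in both AV libraries. The share of *RsMYB29a* was 53.4 ± 5.18% in NV, 40.9 ± 1.15% in V, and 23.5 ± 1.13% in AV (SD, n = 3, 3, and 2), without overlap between time points (exact p = 0.00357, adjusted p = 0.00893). Its lowest NV share was 47.6%, in NV-3, and the highest V share was 41.7%. The V share thus fell by 12.5 percentage points relative to NV although the level itself did not pass the test. The other 4 homologs rose in V by the test above.

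The share of *RsMYB28a* was 21.5 ± 2.79% in NV, 24.5 ± 1.26% in V, and 44.0 ± 4.09% in AV (exact permutation p = 0.00714, adjusted p = 0.0143). NV and V overlapped, and the shift lay between AV and the rest. In AV-1 it was 46.9% of 1810 family reads (95% Wilson interval 44.6 to 49.2%), and in the averaged AV library 41.1% of 2233 reads (39.0 to 43.1%). These intervals cover counting error only. *RsMYB28a* thus gained share in AV while its level fell, as *RsMYB29a*, *RsMYB28c*, and *RsMYB29b* fell further.

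*RsMYB28b* made up 0.782 ± 0.256% of the family reads in NV, 1.25 ± 0.201% in V, and 9.40 ± 1.97% in AV (exact permutation p = 0.00357, adjusted p = 0.00893). The 3 time points did not overlap in this share. The level of *RsMYB28b*, however, did not pass the test in AV against V (adjusted p = 0.337, edgeR), and its V and AV levels overlapped. The family sum in AV was 18.4% of the V mean. In both AV libraries *RsMYB28b* had more reads than *RsMYB29b*, which it had in no other library. *RsMYB29b* held 6.52 ± 0.953% in NV, 9.91 ± 0.285% in V, and 3.78 ± 1.05% in AV (exact permutation p = 0.00357). *RsMYB28c* held 17.8 ± 2.20% in NV, 23.4 ± 0.804% in V, and 19.4 ± 2.21% in AV (exact permutation p = 0.0321, adjusted p = 0.0321). For *RsMYB28c*, V stood above both other time points, and AV and NV overlapped. With any 1 library left out, the exact permutation p stayed at or under 0.0381 for *RsMYB28a*, 0.0190 for *RsMYB28b* and *RsMYB29a*, and 0.0286 for *RsMYB29b*, but reached 0.114 for *RsMYB28c*.

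**Figure D2:**
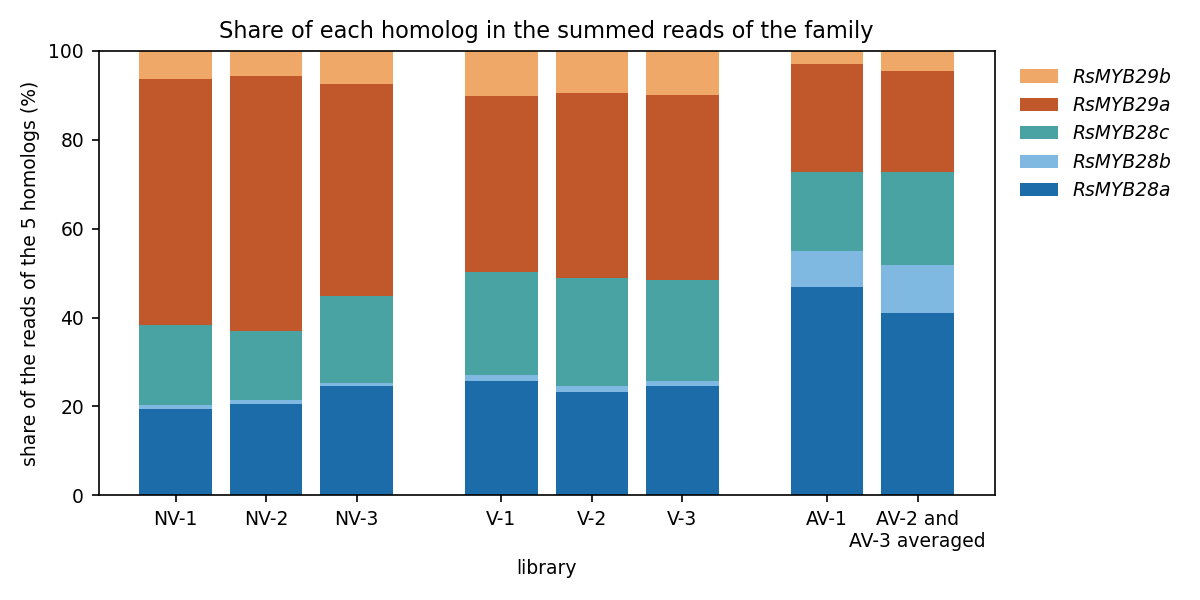
Share of each homolog in the summed reads of the 5 homologs (%), as stacked bars, 1 bar per library in the order NV, V, AV; the last bar is the average of AV-2 and AV-3. RsMYB29a is the largest segment in every NV and V library, and RsMYB28a, at 46.9% and 41.1%, is the largest in AV.

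Taken by gene name, the reads of the family shifted in share from MYB29 to MYB28. The MYB29 homologs together held 61.6, 63.1, and 55.1% of the reads in NV, 49.7, 51.1, and 51.6% in V, and 27.3 and 27.2% in AV. The ratio of MYB29 to MYB28 reads was accordingly 1.23 to 1.71 in NV, 0.990 to 1.07 in V, and 0.376 and 0.374 in AV. The time points did not overlap, and the AV libraries were almost equal in this ratio although their summed levels differed. The MYB28 sum was 54.7 ± 7.24 CPM in AV (SD, n = 2) against 126 ± 15.3 CPM in NV (SD, n = 3). The MYB29 sum was 20.5 ± 2.63 CPM in AV against 193 ± 51.4 CPM in NV. In V the MYB28 sum was 201 ± 23.0 CPM and the MYB29 sum 207 ± 25.2 CPM (SD, n = 3). The mean MYB29 level in V was thus not below that in NV. Of the MYB29 homologs, only *RsMYB29a* lost share in V, while *RsMYB29b* gained.

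Within the MYB28 homologs, *RsMYB28a* and *RsMYB28c* had similar reads in NV and V and parted in AV. *RsMYB28a* held 60.5 ± 5.70% of the MYB28 reads in AV, against 53.7 ± 2.86% in NV and 49.9 ± 2.11% in V (exact permutation p = 0.0107), but the p reached 0.157 with 1 library left out, and the direction of its AV differences turns when each homolog is divided by its own mean. *RsMYB28c* held 26.6 ± 3.01% of the MYB28 reads in AV, against 44.3 ± 2.80% in NV and 47.6 ± 1.76% in V (exact permutation p = 0.0107). *RsMYB28b* held 12.9 ± 2.69% of them in AV, against 2.01 ± 0.809% in NV and 2.54 ± 0.400% in V (exact permutation p = 0.0179). Within the MYB29 homologs, *RsMYB29b* held 19.5 ± 0.846% in V, against 11.0 ± 2.42% in NV, without overlap. In AV it held 11.1 and 16.6%, which overlapped NV (exact permutation p over the 3 time points = 0.0321). Of these shares within MYB28 or MYB29, that of *RsMYB28c* kept an exact permutation p under 0.05 with any 1 library left out, while the p reached 0.0952 for *RsMYB28b* and 0.0952 for *RsMYB29b*.

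How far the shares depend on length was examined after these values were seen, by giving each homolog a length factor of 1 or 2 in all 32 combinations. The share of *RsMYB29a* fell by 22.7 to 34.2 percentage points in AV against NV over these combinations. That of *RsMYB28a* rose by 16.1 to 27.8 points, and that of *RsMYB28b* by 4.55 to 15.6 points. For *RsMYB28c* the AV against NV difference ran from -2.93 to 6.35 points, so that its direction depends on the lengths. Every homolog was also divided by its own mean over the time points, with each time point counting equally. This gives the rare *RsMYB28b* the same weight as the others. Under this scaling, *RsMYB28a* held 20.7% in NV, 19.9% in V, and 20.4% in AV, with no shift (exact permutation p = 0.968). *RsMYB28b* then held 57.4% in AV against 10.1% in NV, and the MYB29 homologs 11.5% in AV against 48.6% in NV. The gain of *RsMYB28a* is therefore a statement about reads, whereas the fall of the MYB29 share and the rise of *RsMYB28b* held under both weightings. The latter follows from the fold changes in AV against NV whatever the weights, and is no added support. *RsMYB28b* alone rose there, and both MYB29 homologs fell more than *RsMYB28a* and *RsMYB28c*.

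The ratio of a pair of homologs within a library changes between time points by a factor that is free of length. For *RsMYB28a* over *RsMYB29a* the ratio was 0.351 to 0.519 in NV, 0.560 to 0.650 in V, and 1.81 to 1.93 in AV, without overlap. Its mean was 4.64-fold higher in AV than in NV. The exact permutation p, which is over the 3 time points and not for AV against NV, was 0.00357 (adjusted over 10 pairs 0.00714). The largest change was that of *RsMYB28b* over *RsMYB29a*, 27.9-fold higher in AV than in NV. *RsMYB28a* over *RsMYB28c* was 1.88-fold higher in AV than in NV, without overlap, so that in these libraries even these MYB28 homologs did not fall in parallel. The exact permutation p of this pair over the 3 time points was 0.0107, and it reached 0.0571 with 1 library left out. *RsMYB28c* and *RsMYB29b*, from different branches of the family, kept the narrowest ratio in NV, 2.63 to 2.83, and stood at 2.28 to 2.53 in V and 4.61 to 5.81 in AV. *RsMYB29a* over *RsMYB29b* was 6.32 to 10.2 in NV, 3.89 to 4.32 in V, and 5.0 and 7.94 in AV (exact permutation p = 0.0464, adjusted p = 0.0464), with AV and NV overlapping. All 10 pairs had an adjusted p under 0.05 over the 3 time points, and 5 to 7 of them did when any 1 library was left out.

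**Figure D3:**
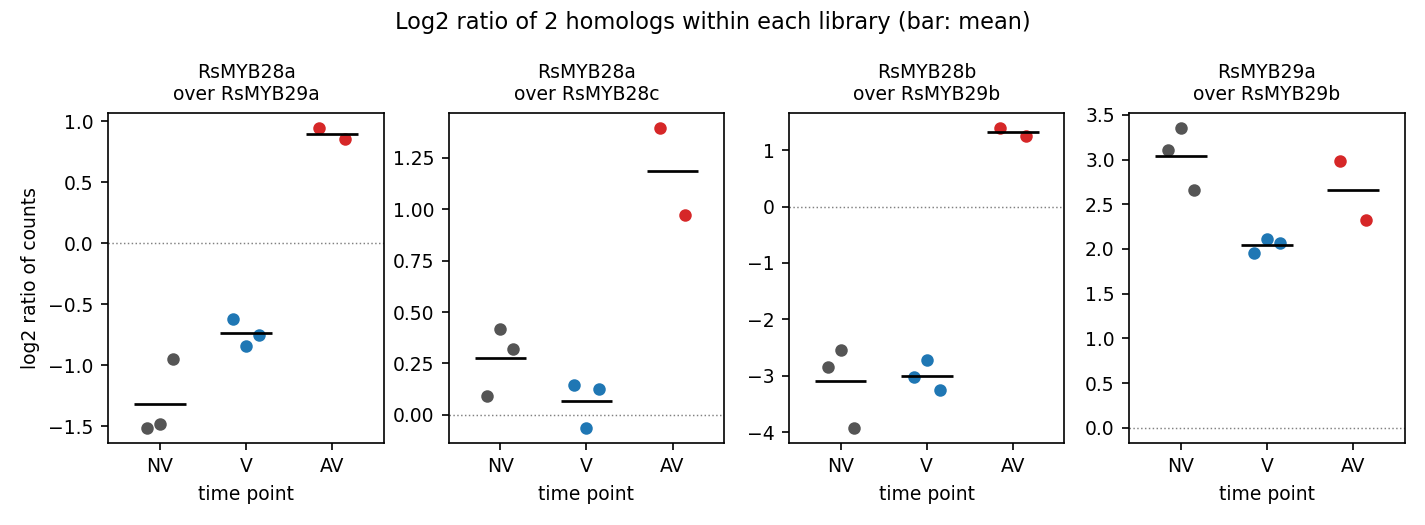
Log2 ratio of the counts of 2 homologs within each library at NV, V, and AV; points are libraries, bars are means, the dotted line marks equal counts, and each panel has its own scale. RsMYB28a over RsMYB29a crosses equality in AV, with ratios of 1.81 to 1.93, and RsMYB28b over RsMYB29b does the same.

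The homologs contributed unequally to the change of the family sum. In V against NV the mean sum was 88.3 CPM higher, of which *RsMYB28c* made up 44.9%, *RsMYB28a* 36.5%, *RsMYB29b* 22.5%, and *RsMYB28b* 2.88%, while *RsMYB29a* counted -6.70%. These V against NV values rest on single libraries: without NV-3, left out after the values were seen, the mean sum was 50.1 CPM higher, and *RsMYB28c* made up 71.1%, *RsMYB28a* 56.7%, *RsMYB29b* 37.5%, and *RsMYB29a* -68.9%. *RsMYB29a* counted -30.2% without V-2, -0.727% without V-3, 6.67% without NV-1, 8.98% without NV-2, and 1.41% without V-1. In AV against NV the mean sum fell by 244 CPM. *RsMYB29a* alone made up 63.5% of that fall, followed by *RsMYB28c* with 16.9%, *RsMYB28a* with 14.2%, and *RsMYB29b* with 7.19%. These percentages weigh reads and not transcripts.

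Within a time point, the homologs tended to vary in the same direction from library to library. Pearson's r of their log2 deviations from the time point means ran from 0.501 (*RsMYB29a* with *RsMYB29b*) to 0.964 (*RsMYB28a* with *RsMYB28b*). This r rests on 8 libraries with 3 time point means removed. The 2 AV deviations of a homolog are mirror images by construction, so that AV raises r wherever the order of its libraries is shared. The library orders given next were read off the homologs' own values. All 5 were lowest in NV-3 among the NV libraries, highest in V-2 among the V libraries, and higher in the averaged AV library than in AV-1, both with TMM and with library totals. Of all genes tested, 39.6% were lowest in NV-3, 41.2% highest in V-2, and 47.4% higher in the averaged AV library, and 11.2% showed all 3. V-2 had the lowest share of reads not assigned to a gene, 4.27%, against 6.996 and 8.89% in the other V libraries, and the part of this in the result was not tested. *RsMYB29a* spread most against its depth: its coefficient of variation in NV was 28.7%, with 1.57% due to counting. The biological coefficient of variation estimated by edgeR was 13.9% for *RsMYB28a*, 27.4% for *RsMYB28b*, and 16.4 to 18.0% for the other homologs, against a median of 18.3% over all genes.

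The genes of aliphatic biosynthesis, which MYB28 and MYB29 activate in *Arabidopsis*, were taken from the study's list of radish homologs, and 37 of 42 had enough counts. In V against NV, 3 were higher and 16 lower, against 19.2% of all genes higher and 19.3% lower, with a median log2 fold change of -0.48. Of the tested genes, 3 of 10 for side-chain elongation, 9 of 19 for core structure formation, and 4 of 8 for secondary modification were lower, and the first of these is near the share of all genes. The 3 that were higher, named after their values were seen, were the glucosyltransferase homolog *RsUGT74C1a* (1.26 on the log2 scale), *RsGS-OH* (1.51), and *RsFMOGS-OX5-1* (1.23), a flavin monooxygenase homolog that oxidizes the side chain. In AV against NV, 27 of the 37 were lower, against 19.8% of all genes, and 1 was higher, against 17.0%, *RsAOP1* (0.87), with a median of -1.64. In AV against V, 27 were lower, against 16.9% of all genes, and 4 higher, against 14.7%: *RsAOP1* (1.44), *RsFMOGS-OX1-2* (0.67), *RsFMOGS-OX2-2* (0.90), and *RsGGP1b* (0.44). The call of *RsAOP1* in AV against NV was lost without NV-1, without NV-2, or without the averaged AV library, and 2 of the 4 in AV against V were left without V-1 or without either AV library.

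Single genes of each step are given for V against NV. *RsCYP79F1*, whose *Arabidopsis* homolog starts the core structure, had a mean of 55.5 ± 5.46 CPM in V against 112 ± 23.2 CPM in NV, a log2 fold change of -1.01 ± 0.17. *RsGRS1*, which forms the double bond of glucoraphasatin, the main radish glucosinolate, had a log2 fold change of -1.17 ± 0.19. *RsIPMDH1*, a dehydrogenase of side-chain elongation (-0.82), *RsBAT5*, a transporter of its intermediates (-1.37), and the sulfotransferase *RsSOT17a* (-1.15) were lower as well. *RsCYP83A1*, the next enzyme of the core pathway, was at 148 ± 13.7 CPM in V and 152 ± 9.11 CPM in NV, a log2 difference of -0.036 ± 0.15 that did not pass the test. Nor did the aminotransferase *RsBCAT4* (-0.28) and the synthase *RsMAM1b* (-0.43), both of side-chain elongation, the C-S lyase *RsSUR1* (0.10), or the glucosyltransferase *RsUGT74B1* (-0.41).

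In AV against NV, 4 of the 5 regulators and most of these genes were lower, whereas *RsMYB28b* was higher (1.46 on the log2 scale). The log2 fold change was -3.29 for *RsMYB29a* and -2.82 for *RsMYB29b*, and -2.80 for *RsCYP79F1*, -2.70 for *RsGRS1*, -2.70 for *RsSOT17a*, -2.89 for *RsIPMDH1*, and -3.33 for *RsBAT5*. The values of *RsMYB28a* (-1.04) and *RsMYB28c* (-1.93) were closer to 0, and the other named genes that were lower had -1.08 (*RsSUR1*), -1.67 (*RsUGT74B1*), -2.01 (*RsBCAT4*), -2.16 (*RsCYP83A1*), and -2.17 (*RsMAM1b*). *RsFMOGS-OX5-1*, at 0.32, did not pass the test.

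**Figure D4:**
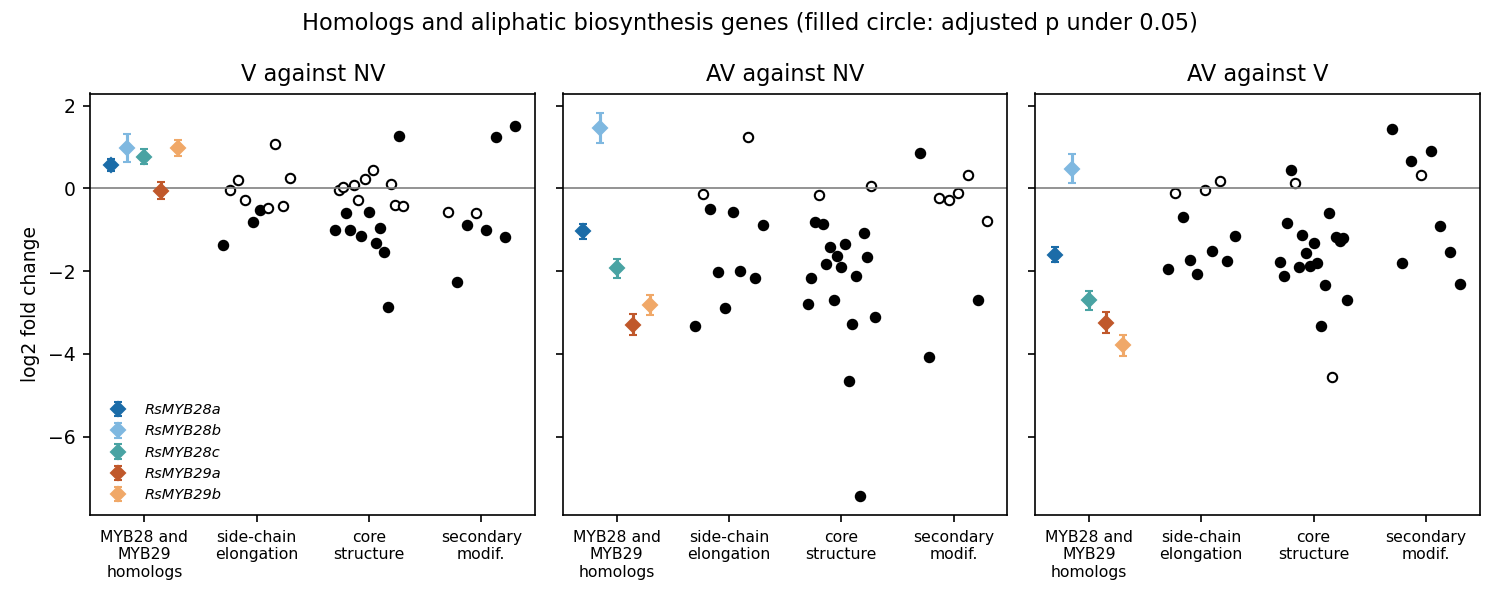
Log2 fold changes of the 5 homologs (coloured diamonds with SE bars) and of 37 aliphatic biosynthesis genes (circles, filled at an adjusted p under 0.05) by pathway step, in V against NV, AV against NV, and AV against V. In V against NV, 4 of the 5 homologs lie above 0 while 16 of the 37 genes are lower; in AV against NV, 27 are lower.

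The regulators of the indolic branch are given for comparison, without a test between the branches. Of 7 homologs of *MYB34*, *MYB51*, and *MYB122*, 3 were higher in V than in NV (*RsMYB34b*, *RsMYB34c*, and *RsMYB122*), against 19.2% of all genes, and the other 4 did not pass the test. In AV against NV, *RsMYB51a* (1.22), *RsMYB51b* (1.85), and *RsMYB122* (1.29) were higher, against 17.0% of all genes, and *RsMYB34c* was lower, against 19.8%. In AV against V, *RsMYB51a* (1.48) and *RsMYB51b* (1.90) were higher, against 14.7% of all genes, and *RsMYB34b* (-2.33) and *RsMYB34c* were lower, against 16.9%. *RsMYB34b* and *RsMYB34c* were thus higher in V than in NV and lower in AV than in V, as *RsMYB28a*, *RsMYB28c*, and *RsMYB29b* were. *RsMYB34c* had 7.29 ± 2.33 CPM in V and 0.935 ± 0.158 CPM in NV, and 1 and 2 counts in AV, under the detection floor of 3 counts, so no fold is given for AV. *RsMYB34b* had at most 32 counts in a library.

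The genes of the glucosinolate list closest to each homolog were sought by Pearson's r of log2 CPM over the 8 libraries, as a description. The libraries share their 3 time points, which set most of r. *RsMYB29a* was closest to *RsTGG1b* (r = 0.990), a homolog of the myrosinase that breaks glucosinolates down, and to *RsCYP83A1* (r = 0.989), and 8 and 10 of all genes tested were at least as close. *RsMYB28a* was closest to the myrosinase homologs *RsTGG1f* (r = 0.987) and *RsTGG1e* (r = 0.982), *RsMYB28c* to *RsMAM1c* (r = 0.977) and *RsTGG1f* (r = 0.968), and *RsMYB29b* to *RsMAM1c* (r = 0.978) and *RsTGG1b* (r = 0.971). Genes at least as close numbered 28 and 53 for *RsMYB28a*, 58 and 116 for *RsMYB28c*, and 69 and 119 for *RsMYB29b*. *RsMYB28b* had no close partner: *RsMAM1a* (r = 0.774), with at most 13 counts in a library, and *RsCYP81F2a* (r = 0.767) came first, and 2044 and 2145 of all genes were at least as close. Among the homologs themselves, *RsMYB28c* and *RsMYB29b* were most alike (r = 0.997), and *RsMYB28b* had an r from -0.43 to -0.18 with the other 4.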

How the data were processed

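The authors checked reads with FastQC, trimmed them, aligned them with TopHat2 to the Nodai radish genome, and deposited raw counts per gene from HTSeq-count, not normalized. The libraries were stranded; tool versions and the strand setting and counting mode of HTSeq-count are not given in the sources used here. Reads assigned to no gene (4.27 to 8.89% of a library) were left out of totals. Reads aligned to several places were 0.974 to 1.59%; close homologs can lose such reads, and the part of this was not tested. Close homologs can also exchange reads. The protocol names whole seedlings and the tissue label leaf and roots.

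From these counts, TMM, filterByExpr (32043 genes kept, all 5 homologs among them), and edgeR 4.0.16 (limma 3.58.1, R 4.3.3) were used: 1 quasi-likelihood fit (glmQLFit, robust) of 8 libraries with a mean per time point, Benjamini-Hochberg adjustment over all genes, and a threshold of 0.05. The SE is the absolute log2 fold change over the square root of F. A count of 3 was the detection floor. Shares, ratios (pseudocount 0.5 for log2 ratios), and exact permutation tests used Python 3.11.15 with NumPy 2.4.6 and SciPy 1.17.1. The fitting script was tested on simulated data. The p-values of edgeR set a difference between time points against the spread between these libraries. Those of the permutation tests rank the grouping by time point among all groupings of the libraries. What separates replicates is not given in the labels.

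The members and gene lists were chosen with earlier results of these data known. Named were the 5 homologs, 1 or a few set genes per aliphatic step, the 7 indolic MYB homologs, and the list genes closest to each homolog. Alternatives were other normalizations, filters and tests (DESeq2 1.42.0 among them), all 9 libraries, a replicate block, and each library left out. No sequences, gene lengths or positions were used here; none of the RSG identifiers matched the RefSeq table (0 matches).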

Additional observations from a re-analysis of the deposited data

How the results depend on the processing

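Calls of the homologs did not change with the normalization, the filter, the test, the samples fitted, or 9 libraries. When a 2-fold change or more was also asked for, 0 homologs were called in V against NV, 9 aliphatic genes were lower in V against NV, 0 were higher in AV against NV, and 1 was higher in AV against V. With 1 library left out, 3 to 4 homologs were called in V against NV, 4 to 5 in AV against NV, and 4 in AV against V. Aliphatic genes higher then numbered 0 to 1 in AV against NV and 2 to 4 in AV against V. Shares that passed were 4 to 7 of 10, and pairs 5 to 7 of 10; fewer groupings of 7 libraries exist. The log2 fold change of *RsMYB29a* in V against NV ran from -0.27 to 0.082. The log2 ratio of *RsMYB28b* to *RsMYB28c* in V minus NV ran from -0.071 (without NV-3) to 0.59. That of *RsMYB28b* to *RsMYB29b* ran from -0.31 (without NV-3) to 0.38, and was also below 0 without V-2.

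With each homolog divided by its own mean, the share of *RsMYB28a* in the family changed by -0.842 points in V minus NV and -0.313 in AV minus NV, and that of *RsMYB28c* by -9.90 in AV minus NV. The share of *RsMYB28a* within the MYB28 homologs then changed by -17.2 points in AV minus NV and -12.3 in AV minus V, in place of 6.80 and 10.6. With length factors, chosen after seeing the data, the lowest AV minus NV change of *RsMYB28c* was -2.93 points. The scaling itself reweights the homologs.

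Whether the replicate numbers pair the libraries could not be settled. Between NV and V libraries, deviations from the group means had an r of 0.0514 to 0.233 for the same number. For different numbers the r was -0.192 to 0.146. These ranges overlap, and AV libraries were not part of this check. With the replicate block, 4 homologs were called in V against NV, and no call of a homolog changed. Depth limits *RsMYB28b* most, and 2 AV libraries limit every AV value.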
